A study of Gallus gallus with 2 samples.

Results

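The HOX genes of paralogue groups 9 to 13 in the HOXA and HOXD clusters were followed in the wings of 1 chick embryo. They were taken by gene symbol and paralogue group, a choice made with earlier results of these data known, and came to 9 of the 24356 rows of the expression table: HOXA9, HOXA10, HOXA11 and HOXA13, and HOXD9, HOXD10, HOXD11, HOXD12 and HOXD13. Its right wing received RCAS-GFP-SOCS2, a replication-competent avian retrovirus carrying green fluorescent protein and SOCS2, a suppressor of cytokine signalling. The left wing of that embryo was not injected and served as the control. RNA of each wing was taken 5 days after infection at Hamburger-Hamilton stage 34, later than the limb bud stages, although the labels call the tissue a forelimb bud. Genotype, strain and sex were not given. The embryo had been picked because it overexpressed SOCS2, and the labels do not say which cells of the wing the virus had reached.

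HOX genes encode homeodomain transcription factors that lie in clusters, and a gene's place in its cluster goes with where and when it is expressed along the body and the limb. Genes near the 3′ end come on early and close to the trunk, whereas those at the 5′ end come on late and toward the limb tip. In the mouse limb, HOX genes of groups 9 and 10 act mostly in the upper segment, those of group 11 in the middle segment and those of groups 12 and 13 in the hand and foot. Loss of Hoxa13 together with Hoxd13 in the mouse prevents a normal hand plate from forming.

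TPM, the unit of all levels here, corrects transcript abundance for length and gives both libraries the same total, so levels of different genes can be set side by side within a library. Each group held 1 library. No difference had a replicate check, so neither a p-value nor a standard error could be had, and injection could not be told apart from the side of the body. Neither library came from a wing given virus without SOCS2. SOCS2 could therefore not be told apart from the virus, green fluorescent protein or the injection itself. The depth of the libraries was unknown. The ratio of injected over uninjected was taken on the log2(TPM + 0.1) scale, and a ratio past 1.5-fold was called higher or lower; this rule of size is not a test. Comparison required a value above 0 in each library and a mean of 1 TPM or more, which 13946 genes met, and all 9 HOX genes were among them. SOCS2 itself had 54.2 TPM uninjected and 254 TPM injected. The forelimb gene TBX5 was at 113 and 137 TPM and the limb mesenchyme gene PRRX1 at 239 and 204 TPM. The leg genes PITX1 and TBX4 were also detected, at 15.2 and 5.25 TPM in the uninjected wing.

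The genes at the 5′ end of both clusters were lower in the injected wing, and those of groups 9 and 10 lay within 1.5-fold. Of the 9 genes, HOXD13, HOXA13, HOXD12 and HOXD11 were lower by more than 1.5-fold, 0 were higher and 5 lay within that range. Over all compared genes, 4.79% were lower and 2.23% higher. Among the 8844 compared genes whose mean lay in the range of these HOX genes, 10.01 to 134.5 TPM, 2.01% were lower and 0.735% higher. The median log2 ratio of the 9 genes was −0.52, against −0.04 over all compared genes. Past 2-fold, 3 of the 9 were lower, with 1.48% of all compared genes.

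The group 13 genes, which act at the limb tip, differed most. HOXD13 (ENSGALG00000032039) stood at 69.4 TPM uninjected and 12.8 TPM injected. The injected wing thus held 18.4% of the control level, a log2 ratio of −2.43. HOXA13 (ENSGALG00000027234), its counterpart in the other cluster, stood at 16.5 TPM uninjected and 3.46 TPM injected, with a log2 ratio of −2.22. Both genes were 4.67-fold to 5.40-fold lower, although HOXD13 was the more abundant of them in each wing. The level of HOXA13 relative to HOXD13 was 0.238 in the uninjected and 0.271 in the injected library, so the balance between these paralogues differed little while both levels differed severalfold.

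HOXD12 (ENSGALG00000009274), which is expressed toward the posterior side of the limb bud and has no partner in the HOXA cluster, was the most abundant of the 9 genes in the uninjected wing at 197 TPM. It was at 71.5 TPM in the injected wing, 2.76-fold lower, with a log2 ratio of −1.46. In TPM this was the largest gap among the 9 genes, −125.9 TPM, and it took the gene from rank 771 to rank 2717 of the 13946 levels in its library.

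Group 11, which in the mouse is needed for the radius and ulna, gave smaller differences. HOXD11 (ENSGALG00000039629) was at 100.5 TPM uninjected and 58.2 TPM injected, 1.72-fold lower, with a log2 ratio of −0.79. HOXA11 (ENSGALG00000040021) was at 36.8 TPM uninjected and 25.6 TPM injected. Its log2 ratio of −0.52 fell short of the 1.5-fold rule, and 5.96% of all compared genes had a lower ratio. Both group 11 genes were thus lower in the injected library, with HOXD11 alone past the rule.

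Groups 9 and 10 lay within 1.5-fold. HOXD10 (ENSGALG00000009270) was at 101.7 TPM uninjected and 101.5 TPM injected, a log2 ratio of −0.00, and HOXA10 (ENSGALG00000026631) at 50.4 and 46.8 TPM, a ratio of −0.11. HOXA9 (ENSGALG00000028983) was at 28.8 TPM uninjected and 29.8 TPM injected, with a ratio of 0.05. HOXD9 (ENSGALG00000027513) had the highest ratio of the 9, 0.43, from 14.4 TPM uninjected to 19.4 TPM injected, and 95.7% of compared genes had a lower one. HOXD9 was the least abundant of the 9 in the uninjected wing. In the injected wing both group 13 genes stood below it.

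**Figure D1:**
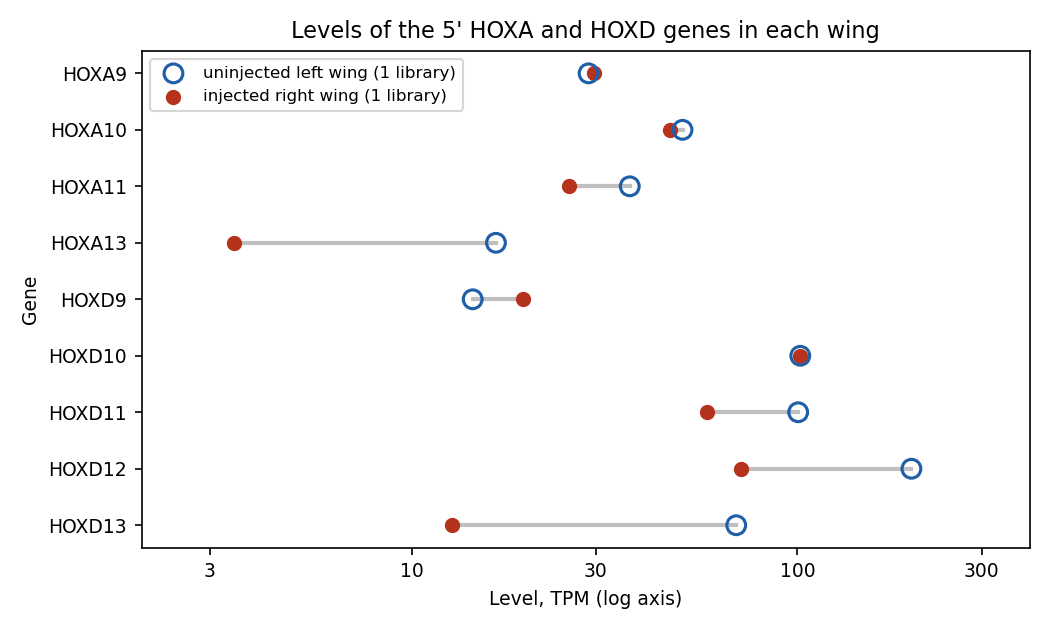
Level of each gene in TPM on a log axis, with an open circle for the uninjected left wing and a filled circle for the injected right wing (1 library each) joined by a line. HOXA13, HOXD13, HOXD12 and HOXD11 have the longest lines, all pointing to lower levels in the injected wing, while both circles of HOXD10 coincide near 101.5 TPM.

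The order of the levels therefore differed between the wings. From highest to lowest it was HOXD12, HOXD10, HOXD11, HOXD13, HOXA10, HOXA11, HOXA9, HOXA13 and HOXD9 in the uninjected library. In the injected library it was HOXD10, HOXD12, HOXD11, HOXA10, HOXA9, HOXA11, HOXD9, HOXD13 and HOXA13. HOXD13 moved from place 4 to place 8 and HOXD10 from place 2 to place 1. With 1 library a wing there is no spread against which to judge neighbours in either order, and some neighbours were close, such as HOXD10 and HOXD11 at 101.7 and 100.5 TPM in the uninjected library.

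Read along each cluster from the 3′ to the 5′ side, the ratio stepped down gene by gene over groups 9 to 13. With 1 library a wing, there was no spread against which to judge any single step. In the HOXD cluster the log2 ratios were 0.43 for HOXD9, −0.00 for HOXD10, −0.79 for HOXD11, −1.46 for HOXD12 and −2.43 for HOXD13. The step from each gene to the next HOX gene on its 5′ side was −0.43, −0.78, −0.68 and −0.97. In the HOXA cluster the ratios were 0.05 for HOXA9, −0.11 for HOXA10, −0.52 for HOXA11 and −2.22 for HOXA13. Here most of the descent lay in the last step, −1.71 between HOXA11 and HOXA13, after steps of −0.15 and −0.41. The HOXA cluster has no counterpart of HOXD12. Its last step therefore spans what the steps of −0.68 and −0.97 cover together in the HOXD cluster.

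Outside the clusters, the homeobox genes EVX1 and EVX2 on the 5′ side were too low to be compared, and the matched genes beyond them lay within 1.5-fold. Over all compared genes 4.79% were lower and 2.23% higher, so short lists of genes would often hold 0 calls. The gene order used here is that of RefSeq on assembly GRCg7b, which was used for order alone. Next to HOXD13 lies EVX2, a homeobox gene, listed at 0.57 TPM uninjected and 0.06 TPM injected, under the minimum mean of 1 TPM. With no filter on the mean EVX2 was lower, at a log2 ratio of −2.02; with a pseudocount of 1 TPM as well, an alternative added after the data were seen, it was at −0.56 and not called. Beyond EVX2, LNPK, a gene of endoplasmic reticulum shape, was at 48.9 and 46.3 TPM, with a ratio of −0.08. Between HOXA13 and EVX1 lies LOC101749067, which could not be matched. Beyond HOXA13, EVX1 was listed at 0.14 TPM uninjected and at 0 injected, and HIBADH, an enzyme of valine breakdown, was at 41.8 and 43.2 TPM, with a ratio of 0.05. A list of 16 genes flanking the clusters had 13 members compared, EVX1 and EVX2 not among them, with 0 higher, 0 lower and a median of −0.00, and its most abundant gene, HNRNPA2B1, was at 1074 and 1072 TPM. On the 3′ side, the nearest HOX genes outside groups 9 to 13 were HOXD8, at 36.5 TPM uninjected and 48.8 TPM injected (0.42), and HOXA7, at 26.6 and 34.0 TPM (0.35). Of the 10 matched HOXA and HOXD genes of groups 1 to 8, all were inside the 1.5-fold range and their median was 0.03; HOXA3, the most abundant, was at 58.2 and 59.6 TPM.

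**Figure D2:**
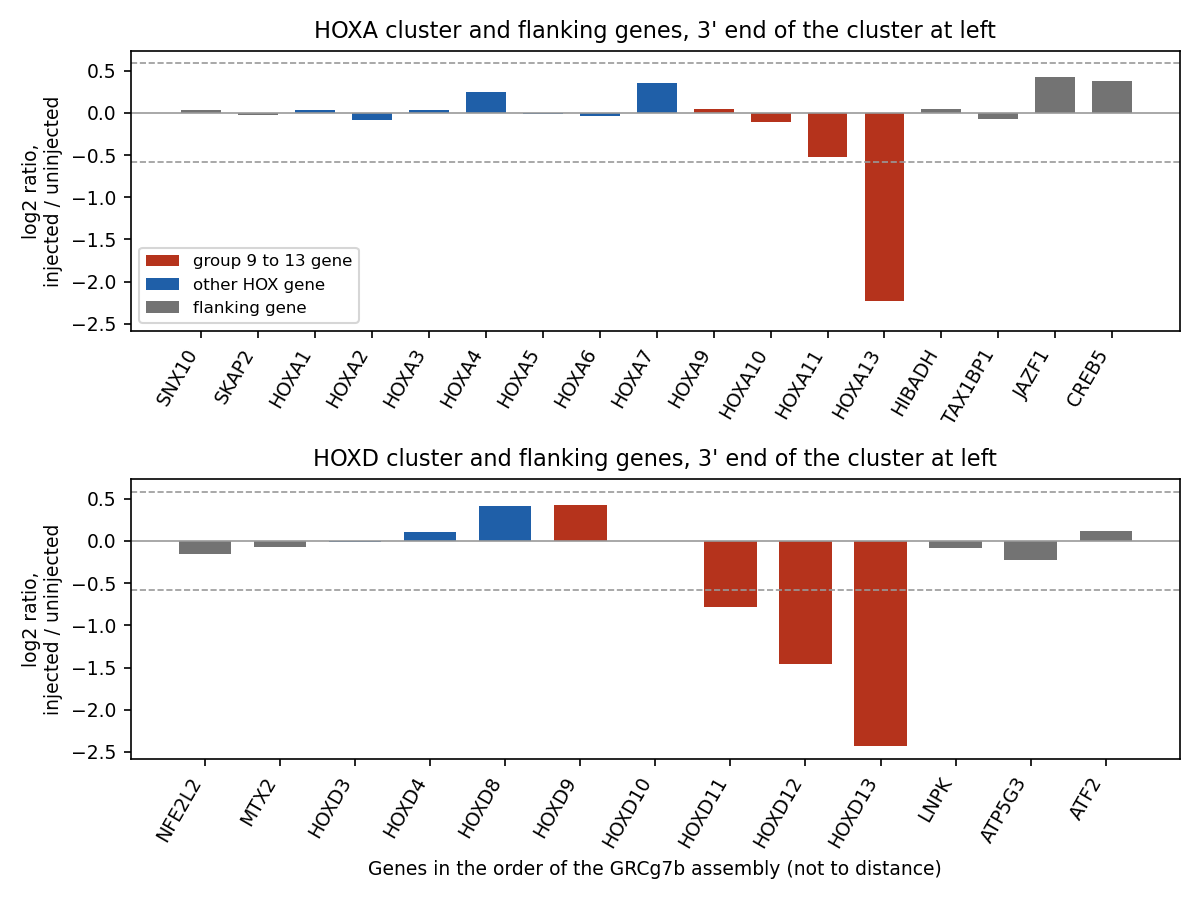
The log2 ratio of injected over uninjected for the compared genes of the HOXA cluster (top) and the HOXD cluster (bottom) with flanking genes, in gene order with the 3′ end of the cluster at left and not drawn to distance; dashed lines mark 1.5-fold. Ratios of groups 9 to 13 step down to −2.22 at HOXA13 and −2.43 at HOXD13, and the next compared genes, HIBADH and LNPK, are at 0.05 and −0.08.

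Because TPM is a share of transcripts, the levels can be added. The 9 genes summed to 615.9 TPM uninjected and 369.1 TPM injected, or 59.9% of the control sum. The 5 HOXD genes went from 483.4 to 263.4 TPM, or 54.5% of control. The 4 HOXA genes went from 132.5 to 105.7 TPM, or 79.8% of control. HOXD12 made up 51.0% of the gap in the sum of 9 genes, HOXD13 23.0% and HOXD11 17.1%, whereas HOXA13, with a fold difference close to that of HOXD13, made up 5.30%, its level being lower than that of HOXD13 in both wings.

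The makeup of the summed transcripts shifted accordingly. By paralogue group, the share of group 13 was 14.0% in the uninjected and 4.40% in the injected library, and that of group 12 was 32.1% and 19.4%. The share of group 11 was 22.3% and 22.7%, close to equal, its sum in the injected wing being 61.1% of control. Group 10 held 24.7% uninjected and 40.2% injected, and group 9 held 7.01% and 13.3%, although the TPM levels of group 10 lay within 1.5-fold. Within the HOXD cluster, HOXD12 held 40.8% of the sum uninjected and 27.2% injected, and HOXD10 held 21.0% and 38.5%. HOXD13 went from 14.4% to 4.85%. Within the HOXA cluster, HOXA10 was the largest share in both wings, at 38.0% and 44.3%, and HOXA13 went from 12.5% to 3.28%.

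**Figure D3:**
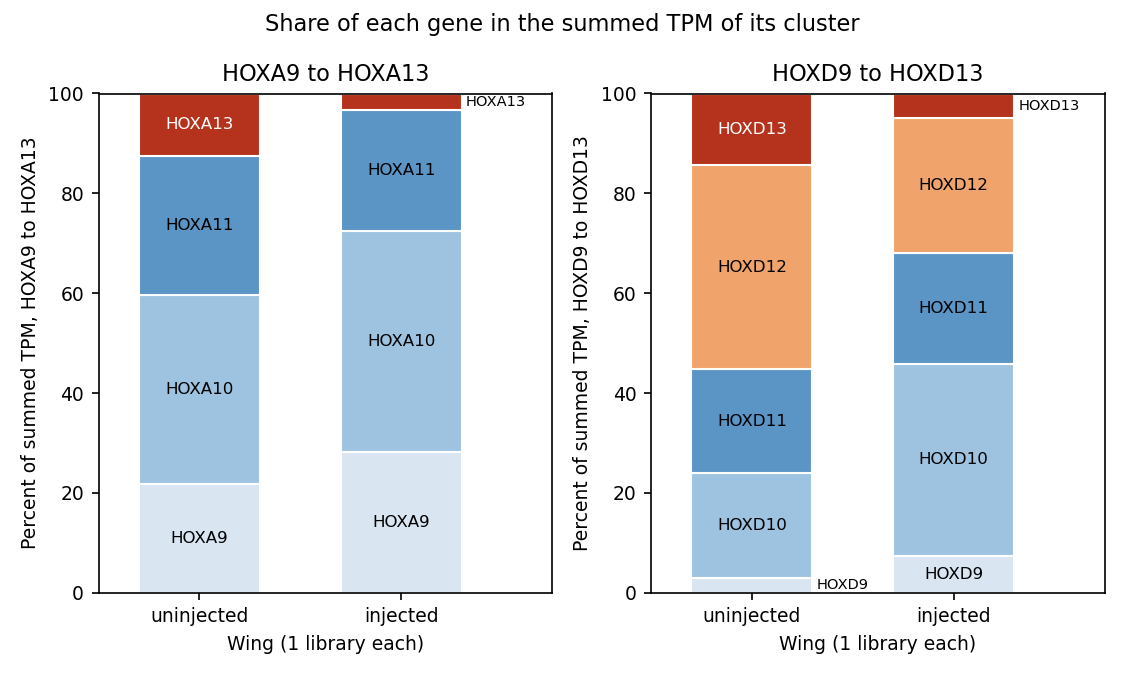
Stacked bars of the percent of summed TPM held by each gene within HOXA9 to HOXA13 (left) and HOXD9 to HOXD13 (right), for the uninjected and the injected wing with 1 library each. HOXD12 is the largest HOXD share in the uninjected wing at 40.8%, and HOXD10 is the largest in the injected wing at 38.5%.

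Ratios scatter more at low TPM. Each gene was therefore also set beside the compared genes, outside the 9, whose mean level lay within 2-fold of its own. For HOXD13 these were 5431 genes, with ratios from −0.36 at the 5th to 0.24 at the 95th percentile, and 0 of them had a ratio as low as its −2.43. For HOXD12 there were 2418 such genes, 0.951% of them lower by more than 1.5-fold, and 1 had a ratio at or below −1.46. For HOXD11, 23 of 3956 genes were as low as −0.79. HOXA13, the least abundant of the 9 by mean, had 3633 such genes, of which 5.06% were lower and 2 had a ratio at or below −2.22. HOXA11 had 139 of 5596 genes at or below its ratio, and HOXD9 had 123 of 4817 at or above its own. HOXA10 and HOXD10 lay near the middle of their sets, with 1611 of 5171 and 1787 of 3228 genes at or below them. HOXA9 had 4098 of 5584 at or below it. Over all compared genes, 23 were lower by more than 4-fold. Of these, 4 had a mean in the range of the 9, namely ALC, HOXD13, HOXA13 and a row with no symbol, ENSGALG00000034345; HOXA13 itself sets the lower end of that range.

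**Figure D4:**
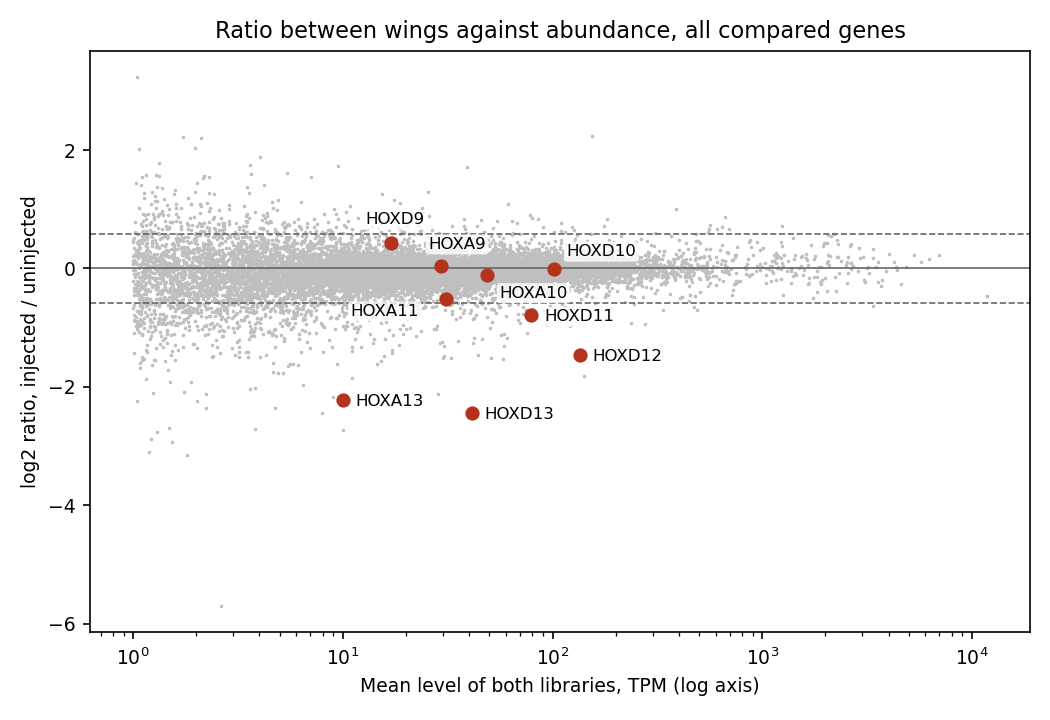
The log2 ratio of injected over uninjected against the mean level in TPM (log axis) for 13946 compared genes (grey) and the 9 HOX genes (red, named); dashed lines mark 1.5-fold. HOXD13, HOXA13 and HOXD12 lie well below the band of genes of like abundance, and HOXA9, HOXA10 and HOXD10 lie inside it.

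The genes most like HOXA13 in ratio, among 2719 named genes with a mean within 2-fold of its own, were NRN1, a neurite growth gene (−2.17), the histone gene HIST1H46L2 (−2.44) and OPA3, a mitochondrial protein gene (−1.84). For HOXD13 the nearest of 4707 such genes lay well short of it: MRPS12, of the mitochondrial ribosome (−1.52), Nnf1 (−1.52) and the tropomyosin gene TPM4 (−1.51). Likeness here rests on 2 libraries alone.

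Genes of the same paralogue groups in the other HOX clusters were scarce in these wings. Of the 7 listed HOXB and HOXC genes of groups 9 to 13, 3 could be compared. HOXC9 was lower, at 10.2 and 4.74 TPM (−1.09), while HOXB9, at 1.37 TPM in both wings, and HOXC10, at 1.76 and 1.73 TPM, had ratios of −0.00 and −0.02. HOXC13 was listed at 1.01 TPM uninjected and 0.55 TPM injected and HOXC11 at 0.60 and 0.52 TPM, and HOXB13 and HOXC12 were listed at 0 in both. Over the 13 compared HOXB and HOXC genes of all groups the median was 0.66. Of them, 8 were higher (HOXB2, HOXB3, HOXB4, HOXB5, HOXB7, HOXC4, HOXC6 and HOXC8) and 1 lower. The shares among all compared genes were 4.79% lower and 2.23% higher. In the uninjected wing the levels of these 8 ran from 1.05 TPM (HOXC4) to 12.95 TPM (HOXB4), and ratios scatter more at low TPM. With a minimum mean of 5 TPM, 5 genes of the list were higher (HOXB3, HOXB4, HOXB7, HOXC6 and HOXC8) and 1 lower (HOXC9). No gene of the list that met this minimum lay within 1.5-fold. Of all 11515 genes that met it, 292 were lower and 122 higher. The 23 compared HOX genes other than the 9 had ratios from −1.09 to 1.57, so HOXA13, HOXD13 and HOXD12 were each lower than all of these 23.

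HOX proteins bind DNA with cofactors of the PBX and MEIS families. Of the 7 cofactor genes compared, 1 was higher, against 2.23% of all compared genes, and 6 lay within 1.5-fold, with a median of 0.14. The higher one was MEIS2, a gene of the upper limb segment listed as Meis2a.2, at 33.0 TPM uninjected and 58.6 TPM injected (0.82). MEIS1, a close relative that also marks the upper segment, was at 80.0 and 87.5 TPM (0.13).

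Signals that regulate 5′ HOX genes in the limb bud held 3 calls among 23 compared genes, 1 lower and 2 higher, with a median of 0.03. The shares over all compared genes were 4.79% lower and 2.23% higher. SHH, the posterior signal that maintains late HOXD expression, was lower, at 6.35 and 2.87 TPM (−1.12). Its receptor and target PTCH1 was at 17.8 and 14.5 TPM (−0.29) and GLI1, another target, at 23.1 and 17.2 TPM (−0.42). GLI3, whose repressor form limits 5′ HOXD expression in the mouse, was at 25.5 and 27.6 TPM (0.11). FGF4 and FGF8, growth factors of the apical ridge in the limb bud, were higher. FGF4 was at 1.60 and 5.58 TPM (1.74) and FGF8 at 5.56 and 10.6 TPM (0.92). These levels and that of SHH were low, where ratios scatter more. A minimum mean of 5 TPM left out SHH and FGF4, while FGF8 stayed higher. GREM1, the BMP antagonist that links the posterior signal to the ridge, was at 36.8 and 38.2 TPM (0.05). The roles given here are those of the limb bud, whereas these wings were taken later, at Hamburger-Hamilton stage 34. Which tissue of the wing the SHH, FGF4 and FGF8 transcripts came from was not tested. Whether these genes acted on HOX genes at this stage was not tested either.

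Polycomb proteins keep HOX clusters silent and Trithorax proteins keep them active. Over all compared genes, 4.79% were lower and 2.23% higher. Of 30 compared Polycomb and Trithorax genes, 2 were lower, 0 higher and 28 within 1.5-fold, with a median of −0.10. The lowest was CBX8, a chromodomain subunit of Polycomb repressive complex 1, at 8.75 and 5.19 TPM (−0.74). With each of 3 other scalings, with a pseudocount of 1 TPM and with the abundance trend removed, 1 gene of the list was lower. EZH2, the methyltransferase of Polycomb repressive complex 2, was at 90.6 and 91.0 TPM (0.01).

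A list of 35 genes that limb studies in mouse or chick have linked to HOX genes of groups 11 and 13 had 34 compared. Where 4.79% of all compared genes were lower and 2.23% higher, 6 of the 34 were lower, 2 higher and 26 within 1.5-fold. Their median was −0.13. The 4 lowest were SALL1, MSX2, NKX3-2 and BARX1. SALL1, a zinc-finger gene of the distal limb, was at 24.9 and 9.26 TPM (−1.42). MSX2, a homeobox gene of distal and interdigital mesenchyme, was at 15.4 and 7.71 TPM (−0.99). The other 2 had low levels, where ratios scatter more. NKX3-2, an early cartilage regulator, was at 4.82 and 2.41 TPM (−0.97), and BARX1, a homeobox gene of mesenchyme, at 3.34 and 1.69 TPM (−0.94). FGF8 and RUNX3 (0.60), a transcription factor of maturing cartilage, were the higher members, and a pseudocount of 1 TPM put RUNX3 within 1.5-fold, at 0.55. EPHA7, an ephrin receptor gene that HOXA13 and HOXD13 are known to regulate in limbs, was at 27.4 and 24.8 TPM (−0.14), and BMP2, BMP4 and BMP7 had ratios of −0.33, −0.53 and −0.39. EPHA7 and the BMP genes were chosen for mention after their values were seen. Of the 34 compared genes, 14 had a ratio above 0, EFNA2 (0.49) and TBX3 (0.34) among them. Over all compared genes, 59.1% had a ratio below the −0.003 of HOXD10, so most of them lay below 0 as well.

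**Figure D5:**
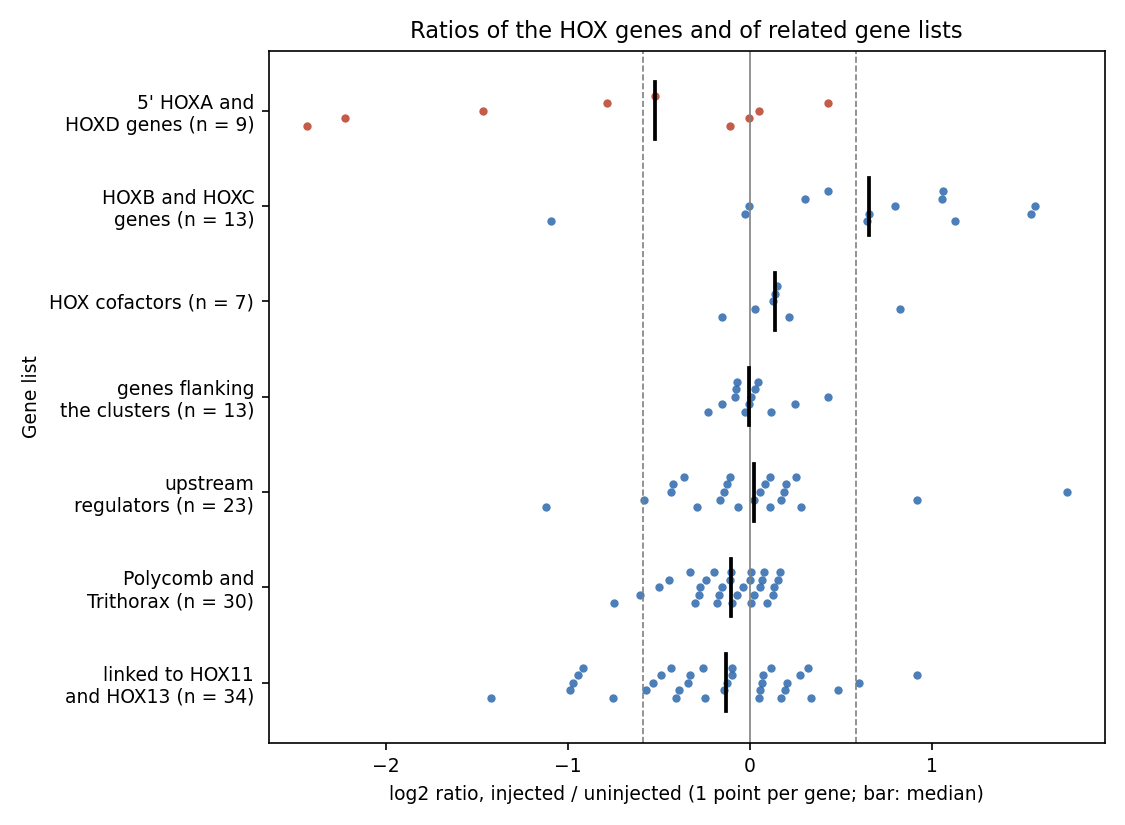
The log2 ratio of injected over uninjected for each compared gene (points) of the 5′ HOXA and HOXD genes and of 6 related lists, with a bar at each median and dashed lines at 1.5-fold. The HOX genes spread from −2.43 to 0.43, the HOXB and HOXC genes have a median of 0.66, and the medians of the other 5 lists lie between −0.13 and 0.14.

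In RNA of mixed tissue, fewer cells that express a gene and less of its RNA per cell cannot be told apart. The labels do not say how much of each wing was collected. A difference in the tissue taken could not be told apart from injection. Marker genes of other tissues moved between the libraries as follows, where 4.79% of all compared genes were lower and 2.23% higher. All 4 nerve and Schwann cell markers, STMN2 (0.71) and SOX10 (0.61) among them, were higher, summing to 32.1 TPM uninjected and 52.0 TPM injected, and 2 of them passed the rule with a pseudocount of 1 TPM. The 5 cartilage markers, led by COL2A1, lay within 1.5-fold with sums of 1853 and 2225 TPM. So did the 5 epidermis markers, led by KRT14, with sums of 364 and 298 TPM, and the 4 endothelium markers, led by CDH5, with sums of 290.3 and 280.3 TPM. Among 5 muscle markers MYF5 was higher (1.11), with sums of 467 and 494 TPM. Among 3 matched blood markers HBZ was lower (−0.70), with sums of 2522 and 2357 TPM. Of 4 melanocyte markers, MITF and PMEL could be compared and lay within 1.5-fold, TYR and DCT were under 1 TPM in both wings, and all 4 summed to 42.4 and 43.8 TPM. Among the 4 limb mesenchyme markers, MSX1, a gene of the distal mesenchyme, was lower at 22.7 and 7.59 TPM (−1.57), while TWIST1 was at 112 and 130 TPM. Of the leg markers TBX4 was lower at 5.25 and 1.79 TPM (−1.50) and PITX1 was at 15.2 and 15.3 TPM. The part of these differences in the HOX values was not tested.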

How the data were processed

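Messenger RNA of 2 wings of 1 embryo was measured, with 1 library per group. The values are TPM as deposited by the authors. Tools named by the submitters' processing notes are StringTie 2.1.7 and HISAT2 2.2.1, with genome build GRCg6a; what each did, the annotation release and strand handling were not given in the sources used here. In RefSeq on GRCg7b, HOXA9 overlaps HOXA10 and both overlap the antisense gene HOXA10-AS, while HOXA11 and HOXD9 each overlap another gene, so reads could be split or shared there. Another table has 2 columns whose names match neither sample and was not used; whether they come from another embryo is unknown, so they gave no replicate. Short RNAs (1311 rows) were left out.

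The log2 ratio used a pseudocount of 0.1 TPM, which understates changes of low genes. The 9 genes and the 16 lists (189 entries, 175 matched, 2 by an older symbol, 164 compared) were chosen with earlier results of these data known. Named genes are the 9, called HOX genes, up to 4 called genes per list and direction, the most abundant member of lists with 0 calls, and for HOXA13 and HOXD13 the 3 named genes of like abundance with the nearest ratio; other names were added after values were seen, and a few called genes are not reported here. No test was possible. The ratio and call steps were tested on simulated data. Python 3.11.15, pandas 2.3.3, NumPy 2.4.6 and matplotlib 3.10.9 were used.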

Additional observations from a re-analysis of the deposited data

How the results depend on the processing

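Over 10 alternatives (3 other scalings, 2 other pseudocounts, 2 other filters, a 2-fold rule, removal of the abundance trend, and genes with a symbol only) HOXD13 stayed between −2.44 and −2.35, HOXD12 between −1.46 and −1.42, and HOXA13 between −2.25 and −1.98, the last with a pseudocount of 1 TPM. HOXD11, at −0.79, was not called under the 2-fold rule, which left 3 of the 9 genes lower, and HOXA11 stayed within 1.5-fold. No alternative reversed a called ratio of the 9. Counts over all genes moved by more than 1.5 times: lower and higher genes numbered 432 and 186 with a pseudocount of 1 TPM, 1298 and 831 with no filter on the mean, 292 and 122 with a minimum mean of 5 TPM, 207 and 70 under the 2-fold rule, and 353 and 186 among genes with a symbol, where fewer genes were compared. The median of the leg markers went to 0.013 with a minimum of 5 TPM, which leaves PITX1 alone. Other scalings shifted all ratios by 0.03 to 0.05. No paired analysis was possible because each group has 1 library. A version on counts was not run because their columns match no sample. Without depth, counting error is unknown.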
